A study of Mus musculus with 9 samples.

Results

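The 10 genes described here are acute-phase genes and genes of the response to interleukin-6 (IL-6) family cytokines. They comprise the receptor subunits Osmr and Il6st, the feedback inhibitor Socs3, the secreted acute-phase proteins Lrg1, Serpina3n, Saa3, Lcn2, Hp and Cp, and the metalloreductase Steap4. They were chosen by gene symbol, with earlier results of these data known, and all 10 were found among the 18193 genes measured. Where a gene had several probe sets, the one with the highest mean in all 9 arrays together was taken. Endothelial cells (ECs) were sorted from whole lungs, and their RNA was hybridised to Affymetrix GeneChip mouse arrays, with 3 arrays in each of 3 groups. All mice were of the NSG strain, which lacks mature lymphocytes, and all received a rat antibody. In both metastatic groups, cells of MDA-MB-231-LM2, a human breast cancer line selected for growth in the lung, had been injected into the tail vein of mice aged 6 to 8 weeks, antibody was given on days 21 and 24, and lungs were taken on day 25. One metastatic group received rat IgG, the other received DC101, an antibody that blocks the VEGF receptor VEGFR2, at 40 mg per kg into the peritoneum, and the healthy group comprised age-matched mice without cancer cells that received rat IgG. Because whole lungs were sorted, ECs of metastatic nodules and of the surrounding lung were measured together. The labels call the arrays biological replicates and do not say whether 1 mouse gave 1 array, and p-values therefore reflect the spread among these samples and nothing wider.

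Acute-phase proteins are plasma proteins whose output changes during inflammation, mostly from hepatocytes but also from ECs and epithelia. IL-6 family cytokines bind a specific receptor subunit, such as OSMR for oncostatin M, which pairs with the shared subunit gp130 (encoded by Il6st), and the complex activates JAK kinases and the transcription factor STAT3. STAT3, with C/EBP and NF-kB factors, drives many acute-phase genes, and it induces Socs3, whose product binds gp130 and shuts the signal down.

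To show the sequence from which these genes are transcribed, promoter windows were taken from RefSeq (mouse assembly GRCm38.p6), which held windows for 9 of the 10 genes, all but Hp. Each window runs from 250 bases before to 50 bases after a gene's start. Both strands were searched for the STAT motif TTCNNNGAA, the C/EBP motif TTGCNNAA, the AP-1 motif TGANTCA and the kappaB motif of NF-kB. Of all 32851 promoter windows, 8.3% held the STAT motif, 10.8% the C/EBP motif, 7.81% the AP-1 motif and 8.46% the kappaB motif. The STAT motif was found in 2 of the 9 genes, Steap4 and Socs3. The C/EBP motif was found in 4, Steap4, Lcn2, Saa3 and Cp, the AP-1 motif in 2, Osmr and Cp, and the kappaB motif in 1, Steap4. The windows of Lrg1, Serpina3n and Il6st held none of these letters. No matches overlapped. The 250 bases before the start are printed for the 2 genes with a STAT match, for Saa3 as a gene with a C/EBP match alone, and for Lrg1 and Serpina3n, which of the 10 genes had the largest differences between metastatic and healthy lungs under IgG. Capitals mark the matches, and the sequences run 5′ to 3′ on the gene's own strand.
Steap4 (chr5:7960222-7960471, plus strand): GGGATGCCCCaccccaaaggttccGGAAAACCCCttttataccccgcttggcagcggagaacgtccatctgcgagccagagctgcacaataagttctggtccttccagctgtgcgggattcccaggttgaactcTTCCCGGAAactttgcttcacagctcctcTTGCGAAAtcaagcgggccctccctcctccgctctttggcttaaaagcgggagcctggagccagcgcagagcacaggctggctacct
Socs3 (chr11:117969367-117969616, minus strand): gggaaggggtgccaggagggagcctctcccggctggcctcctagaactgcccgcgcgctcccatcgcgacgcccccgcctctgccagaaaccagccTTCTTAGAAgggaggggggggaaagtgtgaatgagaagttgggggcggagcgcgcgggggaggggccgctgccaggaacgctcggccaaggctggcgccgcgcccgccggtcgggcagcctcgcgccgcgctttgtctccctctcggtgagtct
Saa3 (chr7:46715677-46715926, minus strand): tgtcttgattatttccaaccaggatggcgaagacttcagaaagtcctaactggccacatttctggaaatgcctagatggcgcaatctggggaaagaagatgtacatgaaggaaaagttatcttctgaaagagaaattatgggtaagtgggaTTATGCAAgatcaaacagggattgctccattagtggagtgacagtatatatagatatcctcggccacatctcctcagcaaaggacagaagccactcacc
Lrg1 (chr17:56121947-56122196, minus strand): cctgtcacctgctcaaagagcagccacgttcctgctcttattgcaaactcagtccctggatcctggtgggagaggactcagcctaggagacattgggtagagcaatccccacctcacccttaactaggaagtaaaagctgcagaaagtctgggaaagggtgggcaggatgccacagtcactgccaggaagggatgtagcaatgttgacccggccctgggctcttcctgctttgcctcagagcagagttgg
Serpina3n (chr12:104406458-104406707, plus strand): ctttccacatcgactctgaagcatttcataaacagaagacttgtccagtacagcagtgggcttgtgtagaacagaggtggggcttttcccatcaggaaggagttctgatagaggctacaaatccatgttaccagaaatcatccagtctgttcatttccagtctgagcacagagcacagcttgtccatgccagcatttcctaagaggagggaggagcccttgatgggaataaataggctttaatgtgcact
In Steap4 the STAT match TTCCCGGAA began 116 bases before the start, and the C/EBP match TTGCGAAA began 87 bases before it. In Socs3 the STAT match TTCTTAGAA began 154 bases before the start. In Saa3 the C/EBP match lay on the opposite strand, appears as TTATGCAA on the gene's own strand and began 99 bases before the start. A match is a description of the letters and not a measured site.

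The first comparison asked how these genes differ between ECs of metastatic and healthy lungs under IgG. Serpina3n, a serine protease inhibitor, rose 5.05-fold in metastatic lungs, and Lrg1, a secreted glycoprotein that acts on TGF-beta signalling in vessels, rose 3.82-fold. Saa3, a serum amyloid A protein made outside the liver, rose 3.15-fold, Cp, the copper-carrying ferroxidase ceruloplasmin, rose 2.85-fold, Lcn2, which binds bacterial iron carriers, rose 2.56-fold, and Steap4, which reduces iron and copper, rose 2.5-fold. Osmr rose 1.43-fold. Il6st, Socs3 and Hp did not pass the test. In all, 7 of the 10 genes were called, all of them higher, by limma with Benjamini-Hochberg adjustment over all 18193 genes (adjusted p under 0.05), where 6.53% of all genes were called and 3.93% were called higher. For the same 7 genes all metastatic IgG arrays lay above all healthy arrays, which held for 13% of all genes. The median log2 difference of the 10 genes was 1.34, against -0.02 over all genes. Because the 10 genes were chosen with earlier results of these data known, these counts and medians are not independent evidence. In bulk samples such as these, fewer cells of a type and less RNA per cell cannot be told apart. Without metastatic IgG replicate 3 the count fell to 3 genes and without metastatic IgG replicate 2 to 4. It was 5 without metastatic IgG replicate 1 or healthy replicate 1 or 2, and 6 without healthy replicate 3.

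**Figure D1:**
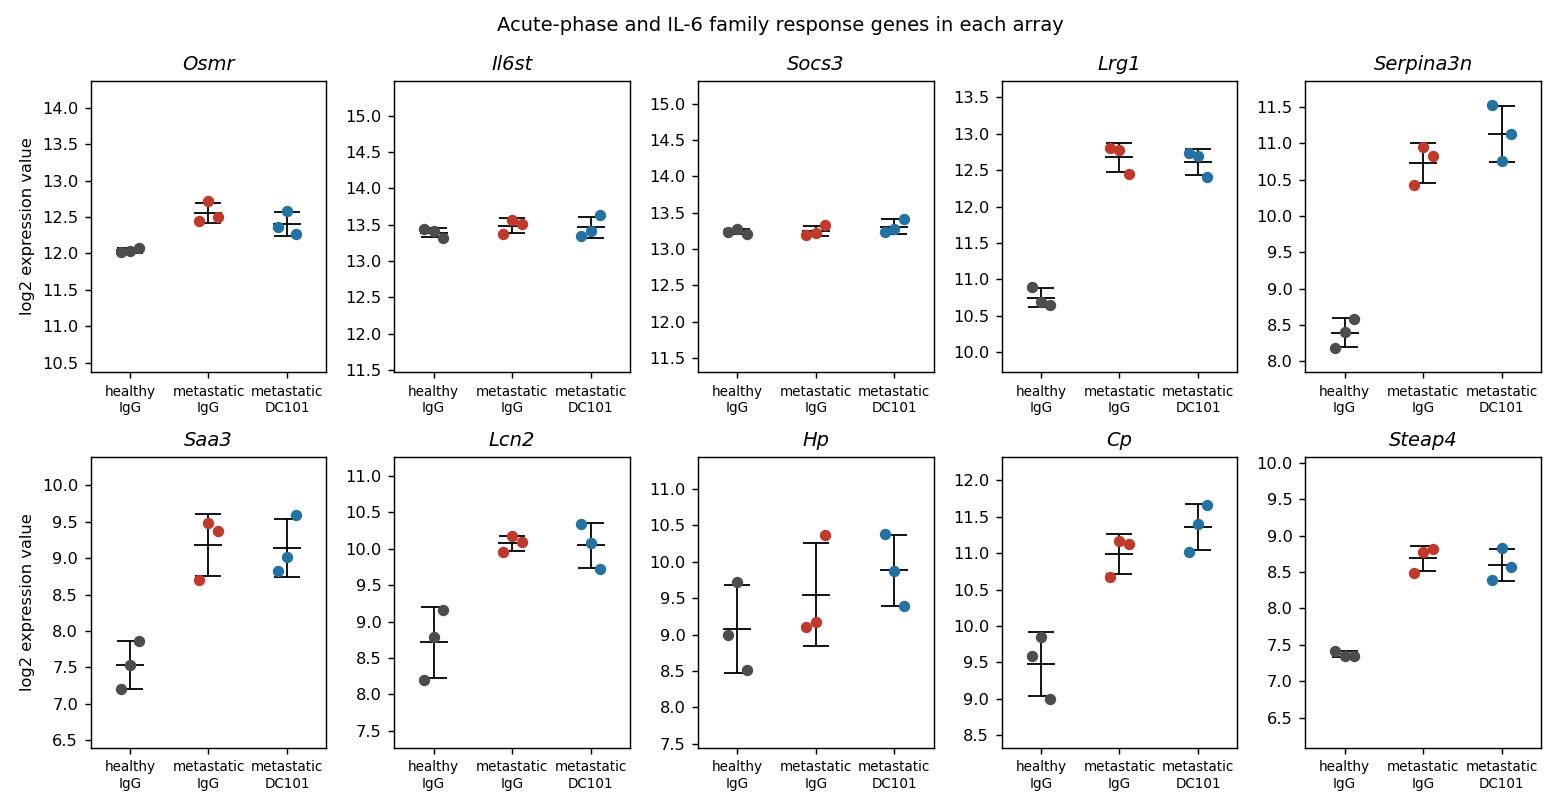
Log2 expression value (vertical axis) of each of the 10 genes in the 3 arrays of each group, with one panel per gene and every panel spanning the same height in log2 units. Points are arrays, horizontal lines are group means and bars are SDs. All arrays of both metastatic groups lie above all healthy arrays for Osmr, Lrg1, Serpina3n, Saa3, Lcn2, Cp and Steap4, and the groups overlap for Il6st, Socs3 and Hp.

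Among the receptors, Osmr, the specific subunit for oncostatin M, had values of 12.02, 12.03 and 12.08 in healthy arrays 1 to 3, 12.45, 12.72 and 12.50 in metastatic arrays with IgG and 12.36, 12.59 and 12.27 with DC101. The healthy arrays lay close together and below all 6 metastatic arrays. The log2 difference under IgG was 0.52 (SE 0.10, adjusted p = 0.0299). Each of the 6 fits that left out 1 array of either group gave a difference between 0.44 and 0.57 and an adjusted p between 0.0526 and 0.0972, so the call rests on all 6 arrays. Osmr is in the inflammation signature that the study picked from its own time course, on other arrays from week 3 of this model. Its direction here is therefore not evidence independent of the model. Il6st, the gp130 subunit shared by the whole family, had values of 13.44, 13.41 and 13.32 in healthy arrays, 13.37, 13.57 and 13.51 with IgG and 13.35, 13.42 and 13.63 with DC101. These ranges overlapped in every pair of groups. Under IgG it differed from healthy lungs by 0.09, with a 95% interval of -0.13 to 0.31 (adjusted p = 0.631).

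Socs3, the inhibitor that STAT3 induces, had values of 13.24, 13.28 and 13.21 in healthy arrays, 13.20, 13.22 and 13.33 with IgG and 13.23, 13.27 and 13.42 with DC101. All 9 arrays lay within a narrow band and no group stood apart. The log2 difference under IgG was 0.01, with a 95% interval of -0.19 to 0.21 (adjusted p = 0.968). Its other 2 probe sets gave differences of -0.20 (adjusted p = 0.323 over all probe sets) and -0.32 (adjusted p = 0.119). In the latter the 3 metastatic IgG arrays lay below the 3 healthy ones, but the difference did not pass the test. The probe sets thus differed in sign, and none passed.

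Among the secreted proteins, Lrg1 had values of 10.90, 10.69 and 10.65 in healthy arrays, 12.80, 12.78 and 12.45 in metastatic arrays with IgG and 12.74, 12.70 and 12.41 with DC101. Both metastatic groups lay far above the healthy arrays and overlapped each other. Its log2 difference under IgG was 1.93 (SE 0.13, adjusted p = 0.000718), the 105th highest of all genes. Serpina3n had values of 8.19, 8.41 and 8.59 in healthy arrays, 10.42, 10.95 and 10.82 with IgG and 11.52, 10.75 and 11.13 with DC101. Again no metastatic array came near the healthy range, and DC101 replicate 1 was the highest of all. For Serpina3n the log2 difference under IgG was 2.34 (SE 0.17, adjusted p = 0.000858), the 56th highest of all genes. Both genes were called in each of the 6 fits that left out 1 array, with adjusted p up to 0.00517 for Lrg1 and 0.00781 for Serpina3n.

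Saa3 had values of 7.20, 7.53 and 7.86 in healthy arrays, 8.70, 9.48 and 9.37 in metastatic arrays with IgG and 8.82, 9.02 and 9.59 with DC101. The healthy arrays were all lower, and the metastatic groups covered much the same range. Under IgG it rose by 1.65 (SE 0.25, adjusted p = 0.0114), with adjusted p = 0.0506 without metastatic IgG replicate 3. Serpina3n and Saa3 belong to the secreted-protein signature GSP58 of the study, picked from the same time course on other arrays. Their direction is not evidence independent of the model either. Lcn2 had values of 8.19, 8.79 and 9.16 in healthy arrays, 9.96, 10.17 and 10.09 with IgG and 10.34, 10.08 and 9.72 with DC101. The healthy arrays spread more widely than the metastatic IgG arrays and did not reach either metastatic group. The IgG difference was 1.36 (SE 0.23, adjusted p = 0.0189). Its adjusted p was 0.0521 without healthy replicate 2 and 0.0512, 0.0635 and 0.0682 without metastatic IgG replicate 1, 2 and 3.

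Cp had values of 9.58, 9.85 and 8.99 in healthy arrays, 10.67, 11.17 and 11.12 in metastatic arrays with IgG and 11.02, 11.40 and 11.66 with DC101. All metastatic arrays were higher than all healthy ones. Cp rose by 1.51 under IgG (SE 0.24, adjusted p = 0.0141), with adjusted p = 0.0526 without healthy replicate 1 and 0.0501 and 0.0600 without metastatic IgG replicate 2 and 3. Hp, which encodes the haemoglobin-binding protein haptoglobin, had values of 9.002, 9.72 and 8.51 in healthy arrays, 9.11, 9.17 and 10.37 with IgG and 10.38, 9.87 and 9.40 with DC101. In the metastatic IgG group replicate 3 alone lay above the healthy range, and the spread within groups was as large as the distance between them. The IgG difference was 0.47, with a 95% interval of -0.51 to 1.45 (adjusted p = 0.578). An increase as large as that of Lcn2 lies within this interval.

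Steap4, a membrane metalloreductase, had values of 7.42, 7.34 and 7.35 in healthy arrays, 8.49, 8.77 and 8.81 in metastatic arrays with IgG and 8.39, 8.83 and 8.57 with DC101. The healthy arrays were nearly identical and lay below all metastatic arrays. The IgG difference was 1.32 (SE 0.11, adjusted p = 0.00142), and the gene was called in each of the 6 fits that left out 1 array. Its other probe set gave -0.39 (SE 0.37, adjusted p = 0.63), and the mean of both gave 0.47 (adjusted p = 0.221), so the call belongs to 1 of 2 probe sets.

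**Figure D2:**
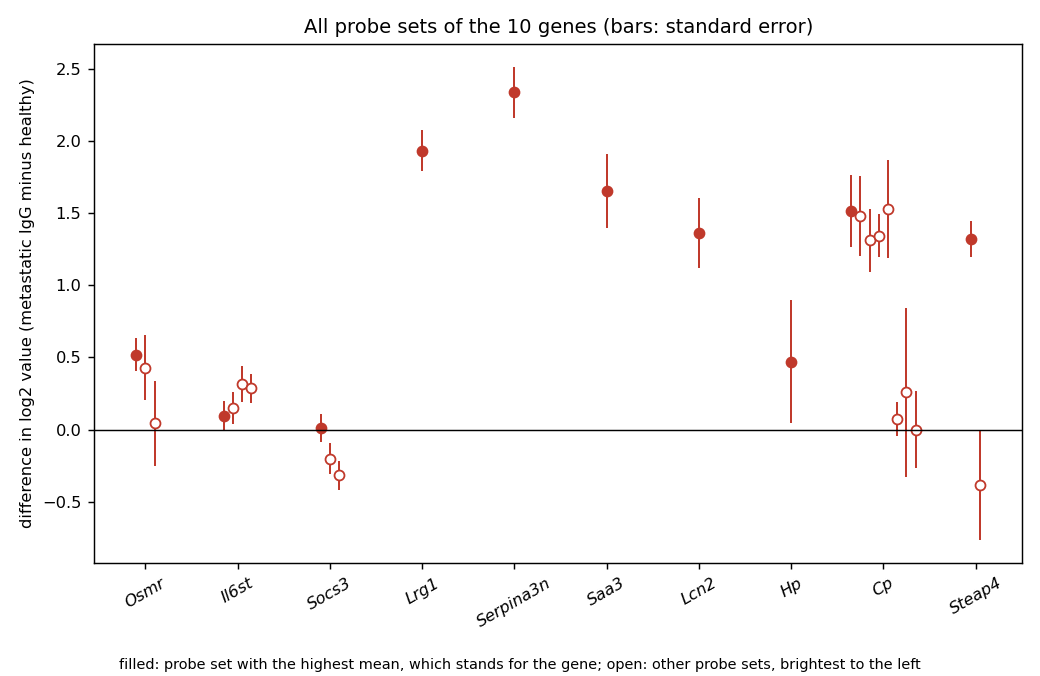
Log2 difference between metastatic IgG and healthy arrays (vertical axis) for all 25 probe sets of the 10 genes (horizontal axis), with bars for standard errors. Filled points are the probe sets with the highest mean, which stand for the genes in the text. Of the 8 probe sets of Cp, 5 lie between 1.31 and 1.53 and 3 between 0 and 0.26, and the 2 probe sets of Steap4 lie at 1.32 and -0.39.

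The probe sets of the other genes were less divided. Lrg1, Serpina3n, Saa3, Lcn2 and Hp had 1 probe set each. For Cp, 4 of the 5 probe sets with a difference above 1.3 passed the test over all probe sets (adjusted p of 0.00513 to 0.0295), and the other had adjusted p = 0.0531. The other 2 probe sets of Osmr gave 0.43 (adjusted p = 0.342) and 0.04 (adjusted p = 0.956), so its call also belongs to the brightest probe set alone. Those of Il6st gave 0.15, 0.32 and 0.29, with adjusted p of 0.148 to 0.496.

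The second comparison asked whether blocking VEGFR2 altered these genes in metastatic lungs. None of the 10 genes was called between DC101 and IgG, where limma called 0% of all genes, and the arrays of the 2 groups overlapped for all 10, while they did not overlap for 12.4% of all genes. At an unadjusted p under 0.05, 1209 genes (6.65%) passed, and none of the 10 was among them. These results take 1 probe set per gene. In the other probe set of Steap4 all DC101 arrays lay above all IgG arrays. Its difference was 0.98 (limma, unadjusted p = 0.0328, adjusted p = 0.801 over all probe sets). On the probe sets used, all 10 differences lay between -0.15 and 0.40, with a median of -0.02, the same as the median of all genes. The highest was that of Serpina3n at 0.40, with a 95% interval of -0.12 to 0.92 (adjusted p = 0.766). Cp followed at 0.37, with an interval of -0.10 to 0.85, and Hp at 0.33, with an interval of -0.55 to 1.22. For Lrg1 the difference was -0.06 and the interval -0.40 to 0.28, for Lcn2 -0.03 and -0.42 to 0.37, for Saa3 -0.04 and -0.65 to 0.57, and for Steap4 -0.09 and -0.45 to 0.26. Osmr differed by -0.15, with an interval of -0.46 to 0.16. On the probe sets used, the intervals of Lrg1, Lcn2, Saa3 and Steap4 therefore leave out a decrease as large as the whole difference between metastatic and healthy lungs. Changes within the intervals were not detectable with 3 arrays a group.

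The third comparison set DC101 against healthy lungs and shares arrays with both others. Serpina3n was 6.67-fold higher (log2 difference 2.74, adjusted p = 0.00167), Cp 3.69-fold (1.88, adjusted p = 0.0147), Lrg1 3.66-fold (1.87, adjusted p = 0.00154), Saa3 3.06-fold (1.61, adjusted p = 0.0206) and Steap4 2.34-fold (1.23, adjusted p = 0.0066). These were the 5 of 10 genes called, all higher, where 2.42% of all genes were called and 1.58% were called higher. Lcn2 differed by 1.33 and Osmr by 0.37, and neither passed (adjusted p = 0.0519 and 0.175), although in both all DC101 arrays lay above all healthy arrays. Without variance sharing between genes none of the 10 was called, while a fit of all 9 arrays called 6, with Lcn2 at adjusted p = 0.0169. The count was 3 without healthy replicate 1 or DC101 replicate 2, where Saa3 (adjusted p = 0.083 and 0.0625) and Cp (0.0671 and 0.0577) were lost. Saa3 was also lost without healthy replicate 2 (adjusted p = 0.0749). The other probe set of Steap4 gave 0.59 (adjusted p = 0.639 over all probe sets), and the mean of both gave 0.91 (adjusted p = 0.159). Cp was not called without cross-hybridising probe set types (1.47, adjusted p = 0.0622) but was as the mean of its probe sets (1.11, adjusted p = 0.0373). Over the 10 genes the median difference was 1.28, against -0.04 over all genes, and 7 of 10 had all DC101 arrays above all healthy arrays, which held for 9.44% of all genes. The choice of the genes with earlier results known limits these counts and medians as well.

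**Figure D3:**
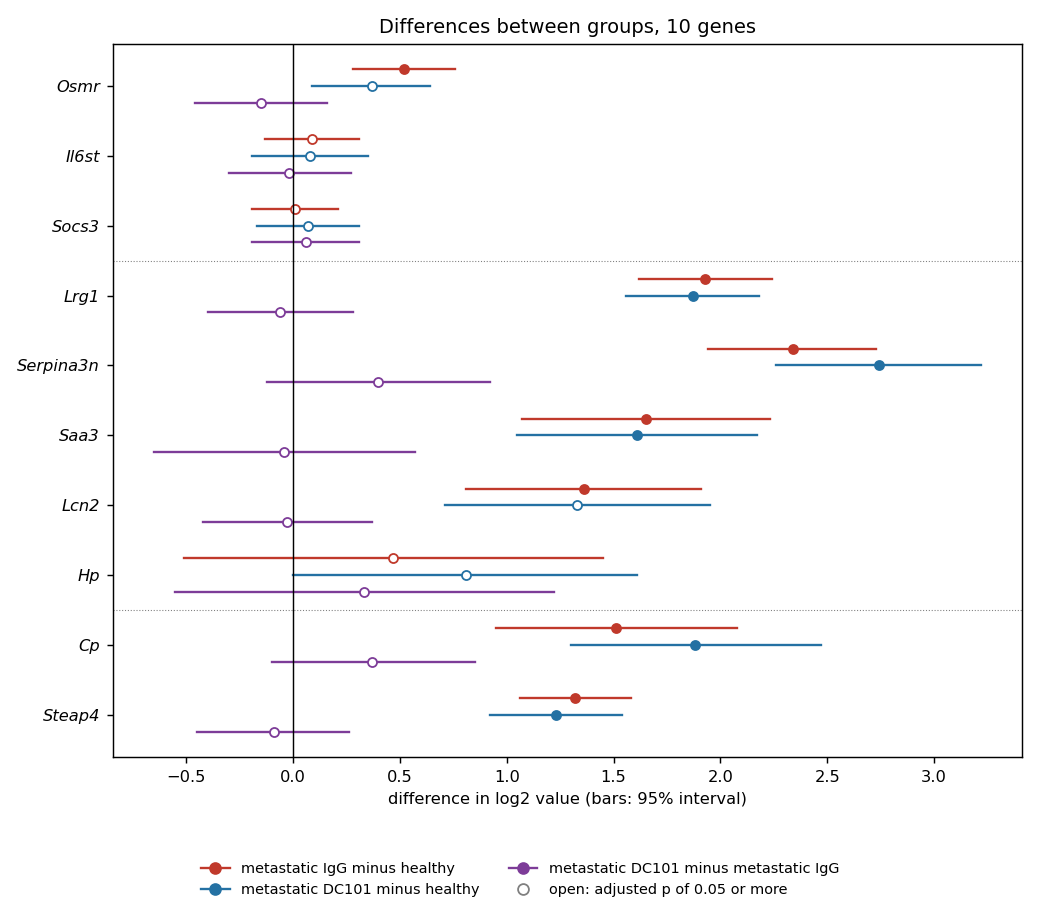
Log2 difference (horizontal axis) of the 10 genes in the 3 comparisons, with points for estimates and bars for 95% intervals. Filled points passed an adjusted p of 0.05 over all genes. Differences of both metastatic groups from healthy lungs lie close to each other for each gene, and the differences between DC101 and IgG all have intervals that include 0.

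The pathway upstream was read from lists of its genes. Among 7 measured IL-6 family cytokines, 1 rose and 1 fell in metastatic lungs with IgG. For this and the lists that follow, 3.93% of all genes were called higher in that comparison and 2.6% lower. Lif, which signals through gp130 and its own receptor subunit, rose from 7.02, 7.05 and 7.17 in healthy arrays to 7.46, 7.99 and 8.08, a log2 difference of 0.77 (adjusted p = 0.044), and it was also higher with DC101 (0.70, adjusted p = 0.037). Il6 had values of 7.94, 7.76 and 7.37 in healthy arrays and 8.35, 8.80 and 8.29 with IgG. All 3 metastatic values were higher, and the difference of 0.79 missed the threshold (adjusted p = 0.0596), as did the difference of 0.74 with DC101 (adjusted p = 0.0662). Clcf1, a ligand of the ciliary neurotrophic factor receptor, fell by 0.60 (adjusted p = 0.0403). Il11 differed by -0.04 and Osm, the oncostatin M ligand itself, by 0.00, with arrays of the groups overlapping for both. Cntf and Il27 were not analysed here.

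Of 6 measured receptor subunits, Osmr and Il27ra rose and none fell, where 3.93% of all genes were called higher and 2.6% lower. Osmr is itself one of the chosen genes. Il27ra, the subunit for IL-27, differed by 0.46 (adjusted p = 0.0434). Il6ra, the specific IL-6 receptor, differed by 0.15 (adjusted p = 0.752) and Lifr, the subunit for Lif, by -0.04 (adjusted p = 0.854). Of 13 genes of JAK-STAT3 signalling and its inhibitors, none rose and 2 fell. Cish, a SOCS family inhibitor best known for STAT5 signalling, fell by 0.59 (adjusted p = 0.0166), with 12.98, 12.72 and 12.83 in healthy arrays and 12.25 in all 3 metastatic IgG arrays. Pias3, which binds STAT3, fell by 0.46 (adjusted p = 0.0471). Jak1, the main kinase at gp130, differed by 0.32 (adjusted p = 0.108) and Stat3 by 0.11 (adjusted p = 0.531). The median difference was 0.00 for the cytokines, 0.12 for the receptors and 0.01 for the signalling genes, beside -0.02 for all genes. No gene of these 3 lists was called between DC101 and IgG.

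**Figure D4:**
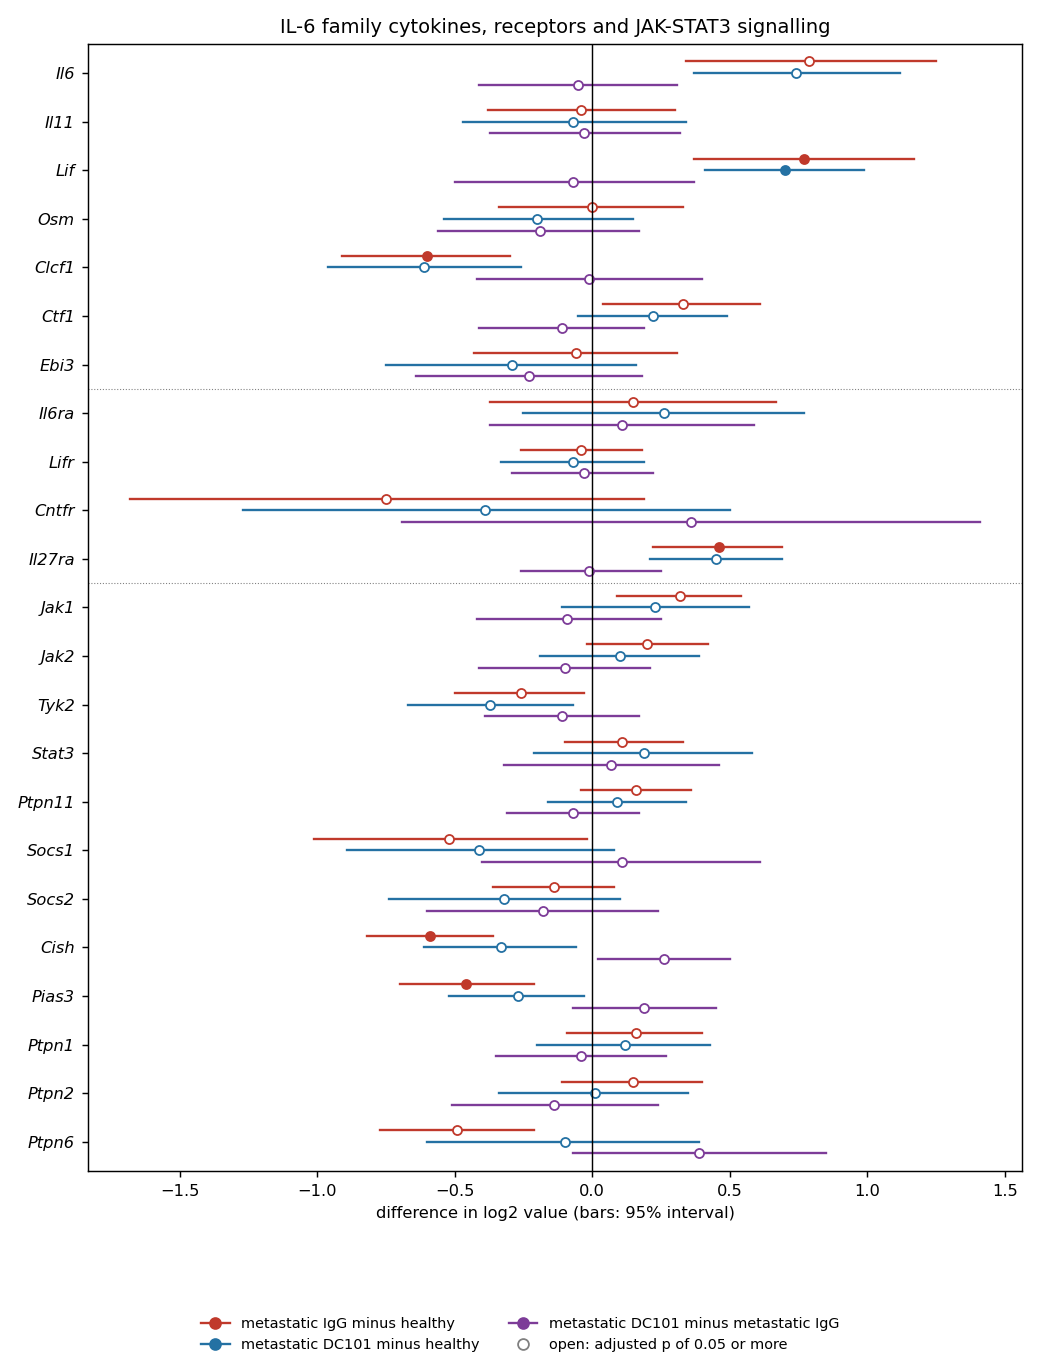
Log2 difference (horizontal axis) in the 3 comparisons for the measured cytokines (top block), receptors other than Osmr and Il6st (middle block) and JAK-STAT3 signalling genes other than Socs3 (bottom block), with 95% intervals. Filled points passed an adjusted p of 0.05 over all genes. Lif at 0.77 and Il27ra at 0.46 are the filled points to the right under IgG, and Clcf1, Cish and Pias3 are those to the left.

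Other STAT3 target genes were divided. Of 25 on the list, 6 rose and 1 fell in metastatic lungs with IgG, where 6.53% of all genes were called, and the median difference was 0.01, beside -0.02 for all genes. Myc, a growth-promoting transcription factor, rose by 2.05 (adjusted p = 0.000486), Timp1, an inhibitor of matrix proteases, by 1.76 (adjusted p = 0.0082), Hif1a, the oxygen-sensing factor, by 0.95 (adjusted p = 0.00247), Bcl3, a regulator of NF-kB, by 0.92 (adjusted p = 0.00401) and Bcl6, a transcriptional repressor, by 0.81 (adjusted p = 0.00885). Irf1, an interferon-response factor named here although outside the 5 largest differences, fell by 0.48 (adjusted p = 0.0189). Many of these genes also answer to other signals. Cebpb and Cebpd, the C/EBP factors of the acute-phase response, differed by 0.14 (adjusted p = 0.502) and 0.01 (adjusted p = 0.972). With DC101, 4 genes of the list, Myc, Timp1, Hif1a and Bcl6, rose and 2, Nfil3 and Irf1, fell against healthy lungs.

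Among 26 other positive acute-phase genes, 3 rose with IgG and none fell, with a median difference of -0.03, beside -0.02 for all genes. Cfb, complement factor B, rose by 1.82 (adjusted p = 0.002), Ptx3, a pentraxin made at inflamed sites, by 1.49 (adjusted p = 0.00665) and Lbp, which binds bacterial lipopolysaccharide, by 0.49 (adjusted p = 0.0388). Cfb was also higher with DC101 (1.64, adjusted p = 0.00548), whereas the difference of Ptx3 with DC101 was 0.74 and did not pass (adjusted p = 0.166). The liver-type genes Saa1, Saa2 and Orm1 differed by 0.33 (adjusted p = 0.309), -0.05 (adjusted p = 0.815) and -0.29 (adjusted p = 0.231), and C3 was not analysed here. These genes were dim, with healthy means of 6.66, 7.51 and 6.91, beside a median of 9.03 over all genes. Others on the list were dim too, such as Crp (6.33) and Fga (6.12). Values near the floor understate changes, which bears on the median of the list. None of 7 negative acute-phase genes and none of 17 genes of iron and haem handling was called. Of 14 genes of IL-1, TNF and Toll-like receptor input, Tlr2, a sensor of bacterial lipoproteins, rose by 0.65 (adjusted p = 0.0264).

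Serpina3n has close relatives in its gene cluster, and transcripts of near-identical copies could hybridise to the same probe set. Besides Serpina3n, 2 genes of the cluster were measured, and with IgG Serpina3a differed by 0.13 and Serpina3i by -0.24, neither of which passed the test. The others on the list were not analysed here.

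Markers of the sorted cells and of others were set beside these results. Pecam1 and Cdh5, which define ECs, differed by 0.01 each under IgG. Of the 10 pan-endothelial markers Emcn rose by 0.53 (adjusted p = 0.0341) and none was called lower. However, 4 of the 10 had all metastatic IgG arrays below all healthy arrays, which held for 14.7% of all genes. The lowest difference was -0.36 for Tek (adjusted p = 0.0714). The summed signal of these markers (values taken off the log scale) was 134025 to 135617 in healthy arrays, 128652 to 129747 with IgG and 124388 to 134049 with DC101. Lcn2, Hp and Lrg1 are also made by neutrophils. Of 11 measured neutrophil markers none was called, and their summed signal was 1990 to 2356 in healthy arrays, 2551 to 3185 with IgG and 2222 to 2896 with DC101. S100a8 differed by 0.73 (adjusted p = 0.0819) and S100a9 by 0.37 (adjusted p = 0.241). Of 11 macrophage and monocyte markers C1qa, C1qb and Mrc1 rose by 1.54, 1.38 and 0.73 (adjusted p of 0.0249, 0.0372 and 0.0493), while Ptprc, which encodes the excluded marker CD45, differed by -0.68 (adjusted p = 0.0614). Their summed signal was 8597 to 9954 in healthy arrays, 7830 to 9391 with IgG and 7351 to 10743 with DC101.

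Saa3, Lcn2 and Cp are also made by lung epithelium. Of 12 epithelial markers 5 were called lower with IgG and none higher: Sftpa1 fell by 1.70, Ager by 1.49, Sftpc by 1.36, Cdh1 by 1.12 and Sftpd by 0.76 (adjusted p of 0.000718 to 0.0476). The list was not uniform, with differences up to 1.35 that did not pass. All metastatic IgG arrays lay below all healthy arrays for 6 of the 12 and above them for 1. Over all genes these shares were 14.7% and 13%. Epcam, whose product was an excluded marker, differed by -0.01 (adjusted p = 0.969). The summed signal of the list was 14181 to 22654 in healthy arrays, 9321 to 10489 with IgG and 8057 to 19387 with DC101. Of 12 fibroblast and mural markers, Col1a1, Col1a2 and Col3a1 rose by 1.85, 1.29 and 0.87 and Dcn and Tcf21 fell by 1.05 and 1.14, with summed signals of 17016 to 21662, 23128 to 35172 and 29254 to 35396. Pdgfrb differed by -0.12 (adjusted p = 0.66). Of 6 hepatocyte markers none rose and Cyp2e1 fell by 0.98, and Alb differed by 0.03. Of 6 mesothelial markers none was called with IgG, and Wt1 was higher with DC101 than in healthy lungs (1.35, adjusted p = 0.0276). Within the endothelium, 3 of 7 venous markers rose and 1 fell. Ackr1 rose by 1.71 (adjusted p = 0.00219), Selp by 1.06 (adjusted p = 0.0208) and Nr2f2 by 0.66 (adjusted p = 0.0289), and Slc6a2 fell by 0.60 (adjusted p = 0.05 as rounded, under the threshold before rounding). Of 6 lymphatic markers 3 rose and none fell, Prox1 by 2.31 (adjusted p = 0.0208), Mmrn1 by 1.84 (adjusted p = 0.0338) and Reln by 1.63 (adjusted p = 0.00381). The 3-prime minus 5-prime difference of the Gapdh control, a sign of RNA quality, was 0.69 to 0.77 in healthy arrays, 0.47 to 0.57 with IgG and 0.35 to 0.60 with DC101. The part of these markers and of RNA quality in the differences of the 10 genes was not tested.

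**Figure D5:**
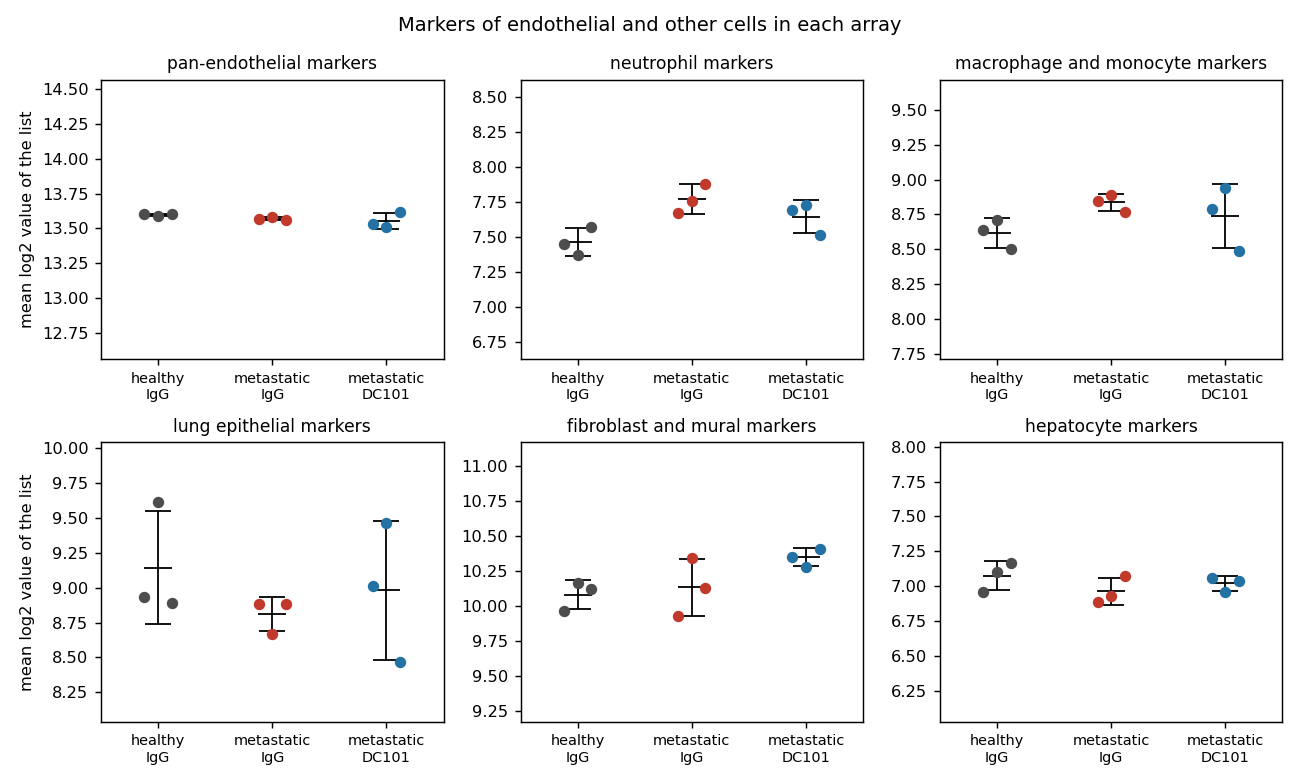
Mean log2 value of the genes of each marker list (vertical axis) in the arrays of each group, with points for arrays, lines for group means and bars for SDs, every panel spanning the same height. The pan-endothelial mean stays between 13.51 and 13.62 in all arrays, while the neutrophil mean is 7.37 to 7.57 in healthy arrays and 7.67 to 7.88 in metastatic arrays with IgG.

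Finally, the genes whose pattern over the 9 arrays was most like that of each called gene were sought by the root mean square difference of z-scores. They were taken from the 9096 genes with a mean above the median of all genes, leaving out the called gene itself. Lrg1 lay closest to C1qtnf1 (0.111), Prnp (0.120) and Mx1 (0.131), and Serpina3n to Clca3a1 (0.123), Gda (0.167) and Mycn (0.176). Steap4 lay closest to Ifi202b (0.109), Sdcbp (0.126) and Usp18 (0.138), and Osmr to Eef1b2 (0.116), Oas1a (0.246) and Samd9l (0.269). For Saa3 the closest were Xbp1 (0.109), Gnb4 (0.219) and Rtp4 (0.220), for Cp Mrtfb (0.173), Gm4951 (0.179) and Plscr3 (0.214), and for Lcn2 Dusp6 (0.224), Lpcat3 (0.253) and Prex2 (0.291). All points of such a pattern share 3 groups, so any gene that separates healthy from metastatic arrays scores as alike. Z-scores also take away the size of a difference, and not all the genes named were called. Their log2 differences between metastatic IgG and healthy arrays ran from 0.23 for Gnb4 (limma, adjusted p = 0.174) to 4.28 for Mycn (adjusted p = 7.76e-05).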

How the data were processed

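The deposited values are expression values on a log2 scale, 1 column per array, which the authors made by robust multiarray averaging (RMA) in Chipster. No log base is given in the table itself; base 2 is what RMA returns. RMA equalises the arrays (medians of 8.32 to 8.33), so a change in total RNA per cell cannot be seen, and probe sets near the floor (lowest value 5.40) understate changes. Array files hold no read depth, and the number of arrays limits the precision.

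Probe sets were named through the platform annotation. Of 45101 probe sets, 64 controls were left out, 34945 had 1 gene symbol and were used, and 932 with several symbols and 9160 not named here entered no gene table. A gene with several probe sets (9010 of 18193) took the one with the highest mean over the 9 arrays. Groups came from the labels. Each pair of groups was compared on its own 6 arrays by limma 3.58.1 (functions lmFit and eBayes, R 4.3.3) in two-sided tests, after the two-group empirical Bayes tests of the study's methods, with Benjamini-Hochberg adjustment over all genes and calls at an adjusted p under 0.05. Intervals are 95% limits from the same fit. The fit was tested on simulated data. No filter on dim genes was applied.

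The 10 genes and the companion lists were chosen with earlier results of these data known. All 10 genes were named. From each companion list the genes called in a comparison were named, at most 5 by absolute difference, together with a few defining genes. Pathway lists are described by counts and, for most, medians, and marker lists by counts and summed signals. Replicate numbers were checked for pairing: deviations of same-numbered arrays correlated with r of -0.054 to 0.084, so the numbers were not taken as pairs. Alternatives changed the probe set choice, the filter, the arrays fitted, the variance model, the centring, the call rule and the replicate block, and left out each array in turn.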

Additional observations from a re-analysis of the deposited data

How the results depend on the processing

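The count of all genes called between metastatic and healthy lungs under IgG was 1188, and it was 376 without variance moderation, 689 with the replicate number as a block and 556 to 759 when 1 array was left out. The count among the 10 genes was 7, and 3 without moderation, 6 with the block and 3 to 6 when 1 array was left out, lowest without metastatic IgG replicate 3 (3) and replicate 2 (4). Between DC101 and healthy lungs 440 genes were called, and 662 with all 9 arrays in 1 fit, 14 without moderation, 247 with the block and 110 to 361 with 1 array left out. Among the 10 genes the count was 5, and 0 without moderation, 5 with the block and 3 to 5 with 1 array left out, lowest without healthy replicate 1 or DC101 replicate 2. Between DC101 and IgG no gene was called under any alternative. The block changed 1 call among the 10 genes, that of Osmr (adjusted p = 0.0762). The fits with an array left out test fewer arrays. Otherwise the cause of these shifts was not tested.

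Differences whose sign turned were all close to 0, lacked a call or came from another probe set. Under IgG, Socs3 (0.01) was -0.17 as the mean of its probe sets, -0.32 without cross-hybridising probe set types, -0.03 after centring, -0.20 and -0.32 in its other probe sets and -0.03 to 0.04 with 1 array left out. Steap4 was -0.39 in its other probe set, and Cp lay at 0.00 in 1 of 8. Between DC101 and IgG, with 1 array left out Lrg1 ran from -0.17 to 0.04, Lcn2 from -0.18 to 0.14, Saa3 from -0.28 to 0.12, Steap4 from -0.21 to 0.01, Il6st from -0.10 to 0.05 and Socs3 from 0.00 to 0.10. After centring, Lcn2 was 0.03, Saa3 0.02 and Il6st 0.04. As the mean of all probe sets, Steap4 was 0.44, Osmr 0.11 and Il6st 0.05. Without cross-hybridising types Socs3 was -0.03 and Cp -0.01. Other probe sets gave 0.98 for Steap4, 0.16 and 0.33 for Osmr, 0.02, 0.04 and 0.15 for Il6st, -0.03 for Socs3 and -0.01, -0.07 and -0.14 for Cp. Between DC101 and healthy lungs, Il6st ran from -0.01 to 0.14 with 1 array left out, Socs3 was -0.15 as the mean of probe sets, -0.35 without cross-hybridising types and -0.17 and -0.35 in its other probe sets, and Cp was -0.07 in 1 probe set.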

Other observations

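DC101 replicate 1 held the highest value of all 9 arrays for 3 of the 10 genes, Serpina3n (11.52), Lcn2 (10.34) and Hp (10.38). For Hp the lead was slight, with 10.37 in metastatic IgG replicate 3. The share of all genes with their highest value in this array was not counted. The same array held the highest values of the glucocorticoid-induced genes Fkbp5 (12.27, against 10.11 and 10.46 in the other DC101 arrays), Zbtb16 (12.37, against 10.28 and 10.91) and Tsc22d3 (12.21, against 10.92 and 11.10). Such genes were not high in this array alone. For 5 of the 8 on the list all DC101 arrays lay above all IgG arrays, which held for 5.4% of all genes. Their median difference between DC101 and IgG was 0.40, beside -0.02 for all genes, and none was called. Fkbp5, a chaperone partner of the glucocorticoid receptor, rose by 0.77 with IgG against healthy lungs (limma, adjusted p = 0.0284), whereas Per1 and Klf9, which also answer to glucocorticoids, fell by 0.61 (adjusted p = 0.0111) and 0.50 (adjusted p = 0.0183). Without DC101 replicate 1 the difference between DC101 and IgG was 0.21 for Serpina3n, -0.18 for Lcn2 and 0.09 for Hp. The part of this array's glucocorticoid-induced genes in these values was not tested.

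DC101 replicate 3 held the highest value of all 9 arrays for Il6st (13.63), Socs3 (13.42), Cp (11.66) and Saa3 (9.59), and also for Stat3 (13.05) and Jak1 (12.88). Other genes were low in this array. Jak2 (11.53) and Ptpn2 (11.08), of the same signalling list as Stat3, had their lowest value of all 9 arrays there. Lrg1 (12.41) and Lcn2 (9.72) had their lowest value of the 6 metastatic arrays. The probe sets of Osmr differed there: the one used above read 12.27, the lowest of the 6 metastatic arrays, another read 12.18 against 10.15 to 11.10 in the other arrays, and the third read 8.86 against 7.61 to 8.83. A probe set of Il6st other than the one used above read 12.83 there against 11.35 to 11.99 in the others. No test was made of a single array, and the share of all genes with their highest value in this array was not counted.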
